A study of Mus musculus with 8 samples.

Results

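RNA of immunoglobulin, B cell and plasma cell genes was followed through all 8 libraries of sorted mouse eosinophils. The genes were 9 symbols matched to Ensembl identifiers: Igha, Ighm, Ighd, Igkc, Jchain, Mzb1, Cd79a, Cd79b and Ms4a1. They are 9 of the 54446 gene rows in each table, and 8 of them had a count in at least 1 library. The list was drawn up from levels and differences between the groups seen earlier in these same libraries, so those values are given below as a description. All libraries were made by CEL-Seq, in which RNA is amplified linearly and transcripts are read near their 3′ end, from eosinophils of C57BL/6 mice in a study of a murine asthma model that asks how lung resident eosinophils depend on IL-5. Resident eosinophils had 4 libraries (replicates 3 to 6). Eosinophils with intermediate Siglec-F, a surface lectin used to sort eosinophils, and without the surface protein CD101 had 2 (Siglec-Fint/CD101-), and eosinophils with high Siglec-F and with CD101 had 2 (SiglecFhi/CD101+). The labels name no treatment, age, sex or animal for any library, and they do not say whether cells of several mice were pooled.

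Antibodies are made by B lymphocytes and, in far larger amounts, by the plasma cells they become. A B cell carries its antibody on the surface, as IgM and IgD before class switching, together with the signalling pair that Cd79a and Cd79b encode. A plasma cell secretes it. In the airway and gut the secreted class is mostly IgA, joined into polymers by the J chain and carried across the epithelium. Eosinophils are not known as antibody producers, although they have been described as supporting plasma cells in bone marrow and gut.

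Promoter sequence is shown for 2 of the 9 genes, Jchain and Cd79a. Of the other listed genes, Mzb1 is not printed and the rest had no promoter at hand. On the main scale Jchain and Cd79a, like Igha, were higher in every subset library than in every resident library. Cd79a lost that separation on another scale, as described below. The windows run from 250 bases before to 50 bases after the RefSeq start site (GRCm38.p6), 5′ to 3′ on the gene's strand, and capitals mark an E-box, a motif bound by basic helix-loop-helix factors such as E2A. The Jchain window is chr5:88527848-88528147 on the minus strand and the Cd79a window is chr7:24897247-24897546 on the plus strand.
Jchain: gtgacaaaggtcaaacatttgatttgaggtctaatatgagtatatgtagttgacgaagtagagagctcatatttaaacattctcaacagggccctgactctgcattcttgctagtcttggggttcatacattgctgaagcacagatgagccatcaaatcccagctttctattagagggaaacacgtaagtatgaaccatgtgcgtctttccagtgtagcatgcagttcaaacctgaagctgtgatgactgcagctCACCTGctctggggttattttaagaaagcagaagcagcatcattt
Cd79a: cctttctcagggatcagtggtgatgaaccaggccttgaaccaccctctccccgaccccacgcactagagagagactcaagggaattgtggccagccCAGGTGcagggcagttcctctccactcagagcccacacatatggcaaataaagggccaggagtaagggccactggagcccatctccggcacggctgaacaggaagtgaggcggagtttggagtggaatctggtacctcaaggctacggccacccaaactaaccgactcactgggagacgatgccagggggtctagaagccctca
The form of E-box searched (CAGGTG, or CACCTG on the other strand), called the E-box here, occurred in 1 copy in each window. Other forms of the motif were neither searched nor marked. The first base of the marked copy lay 6 bases after the Jchain start and 154 bases before (-154) the Cd79a start. The E-box letters were chosen after the sequences had been read, and 20.2% of 32851 promoters of this length held them. The octamer ATGCAAAT (ATTTGCAT on the other strand), a motif of immunoglobulin promoters bound by Oct factors, was in neither window and in 1.74% of all promoters. Of 40 B cell surface, transcription factor, plasma cell and germinal centre genes of the lists below with a promoter at hand, 3 held the octamer (Blnk, Vpreb3 and Mef2b) and 13 the E-box. The E-box was in 8 of 13 B cell surface and signalling genes and in 0 of 8 B cell transcription factor genes. These are counts of genes with a match in any of their promoters, whereas the percentages above are of promoters, so the measures are unlike.

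Library depth and quality moved with the groups. Total counts were 5600610 to 11583550 for resident and 1513517 to 3109428 for subset libraries, and mitochondrial genes took 38.6% to 61.8% and 69.9% to 83.9% of them. Outside the mitochondrial genome 2137819 to 5296468 counts were left in resident libraries and 444902 to 552121 in subset libraries. A count of 3, taken as a library's floor, was 0.199 to 0.501 CPM for resident and 1.59 to 2.18 CPM for subset libraries, where CPM is a count scaled to the TMM-adjusted library size. Depth and group cannot be told apart. The markers of the labelled cell type were unevenly present: of 13 eosinophil markers 12 were in the tables. Ear2 had 46.7 to 291 CPM in every library, and Alox15 was at 4.87, 28.1 and 50.3 CPM in resident, Siglec-Fint/CD101- and SiglecFhi/CD101+ libraries. Prg2, the major basic protein gene, was at 8.55, 1.29 and 136.7 CPM. Prg3 was at 0 in all libraries, Epx had 25 counts, all in resident replicate 5, and Siglecf was at 0 in both Siglec-Fint/CD101- libraries. The summed eosinophil markers were 184 to 438 CPM in resident, 168 to 296 CPM in Siglec-Fint/CD101- and 148 to 454 CPM in SiglecFhi/CD101+ libraries. In such bulk RNA, fewer cells of a type and less RNA per cell cannot be told apart. Values below are mean CPM ± SD over 4, 2 and 2 libraries, and fold changes are log2 values ± an approximate standard error (SE) from 1 edgeR fit over all 8 libraries.

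Igha (ENSMUSG00000095079; chromosome 12, 113254830 to 113260236, minus strand, GRCm38, an immunoglobulin constant region gene) encodes the constant part of IgA's heavy chain and had the largest fold change of the list against resident libraries in the fit of all 8. Without resident replicate 3 those of Jchain and Mzb1, given below, were larger than that of Igha. Igha was at 0.836, 0.236, 11.6 and 1.80 CPM in resident replicates 3 to 6. Siglec-Fint/CD101- replicates 1 and 2 had 679.8 and 360.1 CPM, and SiglecFhi/CD101+ replicates 1 and 2 had 130.4 and 1409.9 CPM. The lowest subset library thus lay above the highest resident library, while the subsets overlapped each other. The resident values rest on 5, 3, 166 and 27 counts, the subset values on 935, 580, 246 and 2312. Group means were 3.63 ± 5.38 CPM (SD, n = 4), 520.0 ± 226 CPM (n = 2) and 770.2 ± 905 CPM (n = 2). The log2 fold change was 7.14 ± 1.17 in Siglec-Fint/CD101- and 7.71 ± 1.19 in SiglecFhi/CD101+ against the same resident libraries. Without SiglecFhi/CD101+ replicate 2 the latter was 5.06, and without resident replicate 5 the values were 9.06 and 9.71.

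Jchain (ENSMUSG00000067149; chromosome 5, 88519809 to 88527891, minus strand), whose product links IgA and IgM into polymers and whose promoter is printed above, was all but absent from resident libraries. It had 16 counts in resident replicate 3 (2.67 CPM) and 0 in replicates 4, 5 and 6. It was at 49.4 and 13.0 CPM in Siglec-Fint/CD101- and at 11.1 and 62.2 CPM in SiglecFhi/CD101+ replicates 1 and 2. All 4 subset libraries were above all resident libraries. Over the pooled counts the level was 89.4-fold the resident level in Siglec-Fint/CD101- (95% counting interval 52.2 to 163) and 105-fold in SiglecFhi/CD101+ libraries (61.9 to 189). The fitted log2 fold changes, 5.64 ± 1.90 and 5.87 ± 1.91, became 10.75 and 11.07 without resident replicate 3, when the resident group held no count, and 4.07 in SiglecFhi/CD101+ without its replicate 2. Such intervals and the floors speak of counting error alone, and reads are not known to be independent molecules.

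Mzb1 (ENSMUSG00000024353; chromosome 18, 35647267 to 35649367, minus strand) encodes a co-chaperone of the endoplasmic reticulum that helps assemble secreted IgM and is abundant in plasma cells and marginal zone B cells. Its resident counts came from the same library as those of Jchain: 15 in replicate 3 (2.51 CPM) and 0 in the other three. Siglec-Fint/CD101- replicate 1 had 46 counts (33.4 CPM) and replicate 2 had 1 count (0.621 CPM). SiglecFhi/CD101+ replicates had 49 and 33 counts (26.0 and 20.1 CPM). Only SiglecFhi/CD101+ libraries were clear of the resident range for Mzb1, with a pooled ratio of 74.4 (42.6 to 139) and a log2 fold change of 5.27 ± 2.10, or 10.41 without resident replicate 3. The Siglec-Fint/CD101- value of 4.83 ± 2.07 rested on its replicate 1, without which it was 0.06, and became 9.86 without resident replicate 3. The exons of Mzb1 overlap those of the gene model SPATA24 on the same strand, so its reads are less certain.

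Ighm (ENSMUSG00000076617; chromosome 12, 113418558 to 113422730, minus strand), the constant region of the IgM heavy chain, was present throughout. It was at 41.9, 83.6, 58.7 and 45.0 CPM in resident replicates 3 to 6, at 539 and 181 CPM in Siglec-Fint/CD101- and at 237 and 53.1 CPM in SiglecFhi/CD101+ replicates 1 and 2. On this scale both Siglec-Fint/CD101- libraries were above the resident range, whereas SiglecFhi/CD101+ replicate 2 was inside it. The log2 fold changes were 2.65 ± 0.63 and 1.34 ± 0.63, and the second was -0.19 without SiglecFhi/CD101+ replicate 1.

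Ighd (ENSMUSG00000104213; chromosome 12, 113406604 to 113416324, minus strand), the IgD constant region that mature naive B cells splice from the same transcript as IgM, did not follow Igha. Resident replicates 3 to 6 had 9.69, 8.25, 16.4 and 0.864 CPM. Siglec-Fint/CD101- libraries had 39.3 and 36.0 CPM and SiglecFhi/CD101+ libraries 7.95 and 1.83 CPM. On this scale the Siglec-Fint/CD101- group was the highest and overlapped neither of the others, with a log2 fold change of 2.09 ± 1.27 over resident libraries. SiglecFhi/CD101+ libraries lay within the resident range at -0.84 ± 1.39, on 15 and 3 counts.

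**Figure D1:**
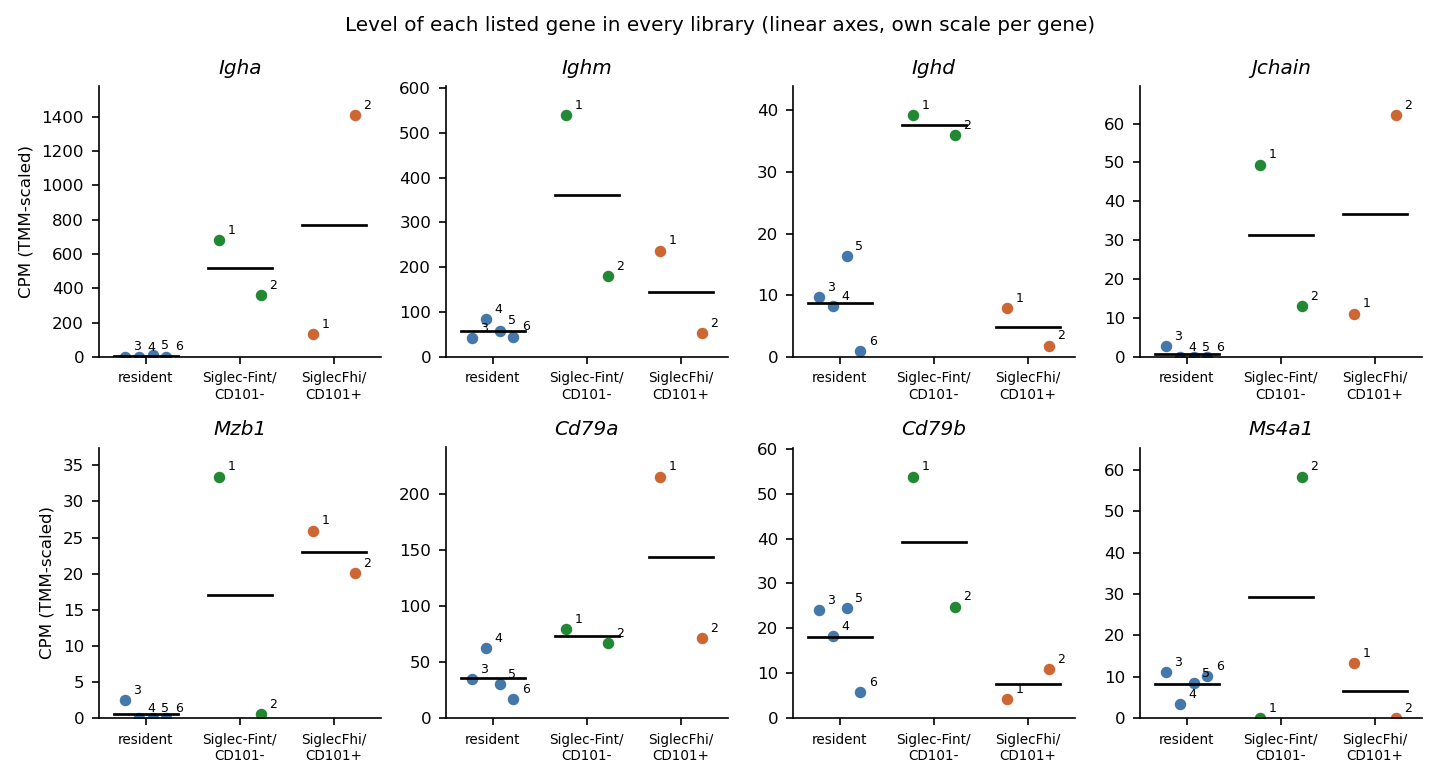
Level of 8 listed genes in CPM (linear axis, TMM-scaled, own scale per panel) in each library, with resident in blue, Siglec-Fint/CD101- in green and SiglecFhi/CD101+ in orange; numbers are replicates and bars are group means. Igha and Jchain points of both subsets stand above all resident points, whereas those of Ms4a1 overlap.

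The signalling pair of the B cell receptor parted ways. Cd79a (ENSMUSG00000003379; chromosome 7, 24897381 to 24902197, plus strand) encodes Ig-alpha. It was at 34.9, 62.6, 30.6 and 16.8 CPM in resident, 79.3 and 67.1 CPM in Siglec-Fint/CD101- and 215 and 71.4 CPM in SiglecFhi/CD101+ libraries. All subset libraries were above all resident libraries, though Siglec-Fint/CD101- replicate 2 exceeded resident replicate 4 by little. With CPM by library totals it did not: Cd79a was then at 36.1 CPM in that subset library and at 68.7 CPM in resident replicate 4. The log2 fold changes were 1.01 ± 0.73 and 1.98 ± 0.72, and the latter was 0.90 without SiglecFhi/CD101+ replicate 1. Cd79b (ENSMUSG00000040592; chromosome 11, 106311341 to 106314762, minus strand), which encodes its partner Ig-beta, was at 24.1, 18.3, 24.5 and 5.85 CPM in resident, 53.8 and 24.8 CPM in Siglec-Fint/CD101- and 4.24 and 11 CPM in SiglecFhi/CD101+ libraries. It was above the resident range in the first subset on this scale and overlapped it in the second, where the counts were 8 and 18. Its log2 fold changes were 1.11 ± 1.08 and -1.26 ± 1.20, the first falling to 0.40 without Siglec-Fint/CD101- replicate 1.

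Ms4a1 (ENSMUSG00000024673; chromosome 19, 11249675 to 11266241, minus strand), which encodes CD20, a surface protein of B cells that plasma cells lose, showed no common direction. Resident replicates 3 to 6 had 11.2, 3.46, 8.55 and 10.1 CPM. In each subset 1 library was at 0 counts: Siglec-Fint/CD101- replicate 1, against 58.4 CPM in replicate 2, and SiglecFhi/CD101+ replicate 2, against 13.3 CPM in replicate 1. The log2 fold changes were 1.81 ± 1.66 and -0.32 ± 1.77. Their signs turned with the setting, to -8.98 in the first without Siglec-Fint/CD101- replicate 2 and to 0.57 in the second without SiglecFhi/CD101+ replicate 2. The gene lies within the span of 4930526L06Rik on the opposite strand, and whether counting used strand is not given in the sources used here.

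Igkc (ENSMUSG00000076609; chromosome 6, 70726435 to 70726966, plus strand), the constant region of the kappa light chain and normally the commonest light chain of the mouse, had 0 counts in every library, under floors of 0.199 to 2.18 CPM. It lies within the span of the gene Gm30211 on the same strand, without exon overlap. Lambda constant region genes, which encode the other light chain type, did have counts, so light chain RNA was counted in these libraries. They summed to 272, 152, 124 and 260 counts for resident, 283 and 149 for Siglec-Fint/CD101- and 1 and 33 for SiglecFhi/CD101+ libraries. For each 100 heavy chain counts this was 10.0 to 86.3 lambda counts in resident libraries, 13.3 and 16.0 in Siglec-Fint/CD101- libraries, and 0.05 and 1.37 in SiglecFhi/CD101+ libraries, whose values lay below all others. What set Igkc to 0 was not tested.

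Nearly all lambda counts of each Siglec-Fint/CD101- library came from 1 gene, a different one in each. In Siglec-Fint/CD101- replicate 1 all 283 lambda counts were Iglc1 (100%; exact Clopper-Pearson 95% interval 98.7% to 100%), and in replicate 2 Iglc2 had 147 of 149 (98.7%; 95.2% to 99.8%). The most counted lambda gene took 44.4% to 64.5% in the 4 resident libraries and 63.6% in SiglecFhi/CD101+ replicate 2. Iglc2 and Iglc3 are near-identical, so their reads may be shared. Clonality was not tested, since the variable segments that could tell clones apart were out of reach. Of 218 V genes, 3 had a count, 13 counts in all. They were Igkv5-43 with 11 counts in SiglecFhi/CD101+ replicate 2, and Ighv1-78 and Iglv1 with 1 count each.

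The class of the heavy chain counts differed between the groups. Igha took 1.59%, 0.256%, 13.4% and 3.58% of heavy chain constant region counts in resident replicates 3 to 6. It took 44.0% and 62.4% in Siglec-Fint/CD101- replicates 1 and 2, and 12.3% and 96.2% in SiglecFhi/CD101+ replicates 1 and 2. Both Siglec-Fint/CD101- libraries were above the resident range. SiglecFhi/CD101+ replicate 1 was not, since its interval of 10.9% to 13.8% overlapped that of resident replicate 5 (11.6% to 15.4%). The SiglecFhi/CD101+ mean of 54.3% ± 59.3 therefore describes neither of its libraries. Ighm was the leading class in resident libraries at 67.6% to 90.7%, and had shares of 34.9% and 31.3% for Siglec-Fint/CD101- and 22.4% and 3.62% for SiglecFhi/CD101+ libraries. All 4 subset values were below all resident values. Shares are of counts at 3′ ends and are not scaled for transcript length.

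Counts of IgG classes came mostly from few libraries. Ighg2b, an IgG2b constant region, made up 52.1% of heavy chain counts in SiglecFhi/CD101+ replicate 1 (1042 counts) and 18.6% in Siglec-Fint/CD101- replicate 1 (396 counts), with at most 1 count in each of the other six libraries. Ighg1, the IgG1 constant region, had 214 counts in SiglecFhi/CD101+ replicate 1 and 1 count in resident replicate 6, with 0 elsewhere. Ighg2c had 36 counts in that SiglecFhi/CD101+ library and 36 in resident replicate 6. Ighg3 and Ighe, the constant regions of IgG3 and IgE, were at 0 in all libraries. The 2 SiglecFhi/CD101+ libraries thus differed in leading class, IgG2b in one and IgA in the other, whereas Igha led in both Siglec-Fint/CD101- libraries.

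**Figure D2:**
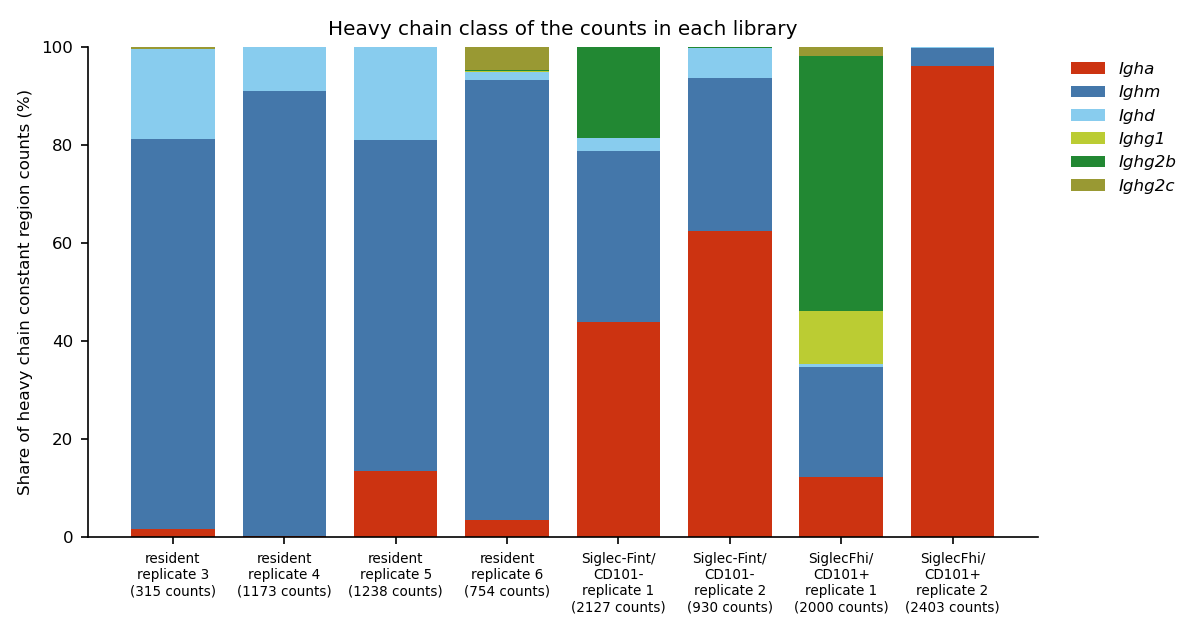
Share of heavy chain constant region counts (%, vertical axis) taken by each class in each library, 1 stacked bar per library with its number of heavy chain counts beneath. Ighm fills 67.6% to 90.7% of the resident bars, Igha 96.2% of the bar of SiglecFhi/CD101+ replicate 2, and Ighg2b 52.1% of that of replicate 1.

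Against resident libraries the listed genes, which were chosen on these contrasts, had positive median log2 fold changes, while the medians of all genes were negative. In SiglecFhi/CD101+ libraries 5 of the 8 tested genes had a positive log2 fold change and their median was 1.66, beside -0.72 over all 11828 genes tested. In Siglec-Fint/CD101- libraries all 8 were positive with a median of 2.37, beside -0.997 over all genes. By the quasi-likelihood test of edgeR, with Benjamini-Hochberg adjusted p over all genes, 1 of the 8 passed in each comparison. It was Igha both times, with an adjusted p of 0.0410 in SiglecFhi/CD101+ and 0.0409 in Siglec-Fint/CD101- libraries. Of all genes, 0.0254% passed upward in SiglecFhi/CD101+ and 0.0338% in Siglec-Fint/CD101- libraries, where 0.0592% passed in either direction. Because of that choice, nothing is read from these medians or from any count of listed genes against resident libraries, here or below. Jchain, Mzb1, Ighm and Cd79a were at adjusted p values of 0.210, 0.249, 0.300 and 0.228 in SiglecFhi/CD101+ and of 0.288, 0.304, 0.192 and 0.462 in Siglec-Fint/CD101- libraries. At an unadjusted p under 0.05, 4 of 8 were higher in each comparison and 0 lower, beside 3.65% and 1.90% of all genes higher and 13.1% and 13.8% lower.

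The call of Igha was fragile. It held in 6 of 17 alternatives in each comparison, with adjusted p from 0.00297 to 0.200 in SiglecFhi/CD101+ and from 0.00669 to 0.339 in Siglec-Fint/CD101- libraries. In SiglecFhi/CD101+ libraries it was lost without resident replicate 3 (0.200) or 6 (0.0879) and without either SiglecFhi/CD101+ replicate (0.0584 and 0.107). In Siglec-Fint/CD101- libraries it was lost without resident replicate 3 (0.260) or 6 (0.127), without either Siglec-Fint/CD101- replicate (0.119 and 0.166) and without SiglecFhi/CD101+ replicate 2 (0.0510). Its fold change stayed positive in all of these. Both comparisons use the same resident libraries, so the 2 fold changes of a gene are not independent.

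Counted by library, 4 listed genes in SiglecFhi/CD101+ (Igha, Jchain, Mzb1 and Cd79a) and 6 in Siglec-Fint/CD101- (Igha, Ighm, Ighd, Jchain, Cd79a and Cd79b) were higher in both subset libraries than in any resident library, beside 6.78% and 4.46% of all genes tested. None was lower without overlap, beside 27.4% and 29.3%. With CPM by library totals the 4 in SiglecFhi/CD101+ were the same genes, whereas in Siglec-Fint/CD101- 2 were left, Igha and Jchain, beside 3.59% and 1.13% of all genes. Ighm in Siglec-Fint/CD101- replicate 2 was then at 97.3 CPM, below the 110.3 CPM of resident replicate 5, and Ighd, Cd79a and Cd79b overlapped likewise.

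Between the subsets none of the listed genes was told apart by the test. Igha, Jchain and Mzb1 had log2 fold changes of 0.57 ± 1.22, 0.23 ± 2.07 and 0.44 ± 2.33 in SiglecFhi/CD101+ against Siglec-Fint/CD101- libraries. Each of the 3 turned negative when 1 library was left out, Igha to -2.07 and Jchain to -1.56 without SiglecFhi/CD101+ replicate 2, and Mzb1 to -0.62 without Siglec-Fint/CD101- replicate 2. Ighd and Cd79b were lower in both SiglecFhi/CD101+ libraries than in either Siglec-Fint/CD101- library, at -2.93 ± 1.65 and -2.37 ± 1.37. These 2 of 8 stand beside 11.9% of all genes that were lower without overlap, and 0 of 8 were higher beside 15.8%. With CPM by library totals the 2 were the same, and Cd79a was higher without overlap. By edgeR's quasi-likelihood test none of the 8 passed (adjusted p from 0.343 for Ighd to 1 for Jchain and Mzb1), where 0.00845% of all genes did. At an unadjusted p under 0.05 0 were higher and 0 lower, beside 9.98% and 7.96% of all genes, and at the adjusted threshold DESeq2 and limma-voom also called 0 of the 8. The standard errors, from 0.77 for Ighm to 2.33 for Mzb1, leave room for differences of several fold in either direction.

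**Figure D3:**
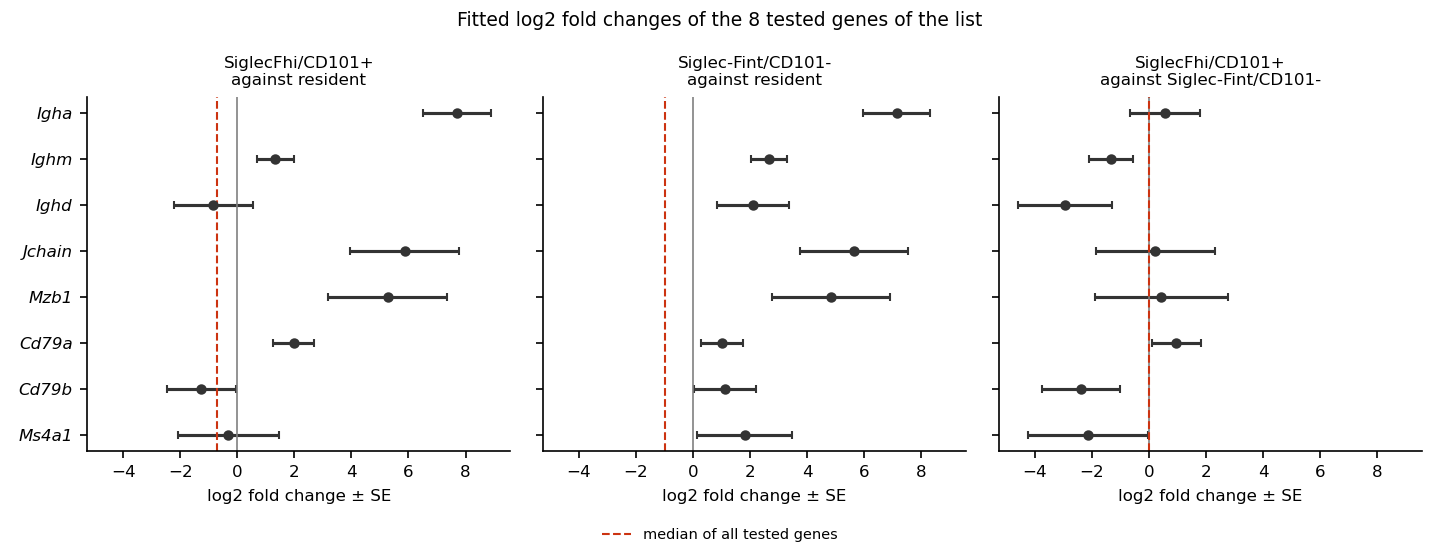
Fitted log2 fold change (point) ± SE (bar) of the 8 tested genes in the 3 comparisons, with the median of all tested genes as a dashed line. Igha stands at 7.71 and 7.14 against resident libraries and at 0.57 between the subsets.

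Genes of the wider B cell and plasma cell programmes were read from 9 lists. In each of them 0 genes passed edgeR's test over all genes in any comparison. Of 17 B cell surface and receptor signalling genes, the median log2 fold change was -0.81 in SiglecFhi/CD101+ and -2.29 in Siglec-Fint/CD101- against resident libraries, near or below the all-gene medians of -0.72 and -0.997. H2-Ob, a class II chaperone chain of B cells, was at 80.7 ± 36.4 CPM in resident, 2.79 ± 3.95 CPM in Siglec-Fint/CD101- and 40.3 ± 51.8 CPM in SiglecFhi/CD101+ libraries. Siglecg, an inhibitory B cell lectin, had 0 counts in 3 of the 4 subset libraries and 137 in SiglecFhi/CD101+ replicate 2. Ly6d was at 8.70 ± 8.77, 44.7 ± 63.2 and 32.8 ± 30 CPM in resident, Siglec-Fint/CD101- and SiglecFhi/CD101+ libraries. Cxcr5 was at 9.36 ± 5.79, 15.5 ± 3.48 and 25.8 ± 22.7 CPM, and both genes overlapped the resident range. Of the 17, 0 in either subset were higher than in any resident library, beside 6.78% of all genes in SiglecFhi/CD101+ and 4.46% in Siglec-Fint/CD101-. Lower were 2 and 6, beside 27.4% and 29.3%.

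Among 10 B cell transcription factors and co-activators the medians were -0.82 and -0.57 against resident libraries. Without overlap, 1 was higher (Ikzf3) and 1 lower (Bcl11a) in SiglecFhi/CD101+, and 1 higher (Pou2af1) and 2 lower in Siglec-Fint/CD101-. Ikzf3 ran from 14.8 to 57.3 CPM in SiglecFhi/CD101+ libraries, beside a resident maximum of 6.12 CPM. Pou2af1 ran from 11.2 to 15.3 CPM in Siglec-Fint/CD101- libraries, beside a resident maximum of 3.38 CPM. In the other subset each overlapped the resident range. Ebf1, which specifies the B lineage, was at 21.6 ± 13.3 CPM in resident, 50.3 ± 52.7 CPM in Siglec-Fint/CD101- and 40.3 ± 50.2 CPM in SiglecFhi/CD101+ libraries. Bach2, which holds B cells short of the plasma cell fate, was at 45.5 ± 26.2, 18.6 ± 22 and 48.1 ± 54.2 CPM. Neither passed the test. Of the 7 germinal centre genes, Bcl6, the master factor of the germinal centre and also expressed by myeloid cells, was at 60.6 ± 23.2 CPM in resident, 20 ± 28.3 CPM in Siglec-Fint/CD101- and 17.2 ± 20 CPM in SiglecFhi/CD101+ libraries, with both subsets below the resident range.

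Plasma cell identity genes other than those of the list had medians near that of all genes. Of 15, 12 had a count and 10 were tested, with medians of -0.64 in SiglecFhi/CD101+ and -1.21 in Siglec-Fint/CD101- against resident libraries. Xbp1, the factor that expands the secretory apparatus, was at 39.7 ± 6.33 CPM in resident, 28.2 ± 22.4 CPM in Siglec-Fint/CD101- and 24.4 ± 0.801 CPM in SiglecFhi/CD101+ libraries. Ell2, an elongation factor that favours secreted immunoglobulin transcripts, was at 40.3 ± 7.16, 49.8 ± 10.8 and 41.4 ± 28.6 CPM. Slamf7, a surface receptor of plasma cells and other leukocytes, was at 61.8 ± 3.60 CPM in resident, 21.8 ± 30.8 CPM in Siglec-Fint/CD101- and 1.06 ± 1.499 CPM in SiglecFhi/CD101+ libraries. Irf4, a transcription factor of the list, was at 16.2 ± 12 CPM in resident, 0.621 ± 0.878 CPM in Siglec-Fint/CD101- and 34 ± 47.2 CPM in SiglecFhi/CD101+ libraries. The last mean held 1 library at 67.3 CPM, above the resident maximum of 30.1 CPM, and 1 at 0.610 CPM. Sdc1, a surface protein of plasma cells, was at 12.6 ± 17, 6.13 ± 7.79 and 14.6 ± 19.9 CPM. Prdm1, the factor of terminal differentiation, had 0 counts in 3 of the 4 subset libraries and 6 in SiglecFhi/CD101+ replicate 1. Tnfrsf17, the plasma cell survival receptor BCMA, had 0 counts in all libraries.

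Genes of folding and export in the endoplasmic reticulum, which a secreting plasma cell needs, had 24 of 25 tested and medians of -0.49 and -0.56 against resident libraries. In Siglec-Fint/CD101- libraries 5 of the 24 were higher and 6 lower than in any resident library, beside 4.46% and 29.3% of all genes. In SiglecFhi/CD101+ libraries it was 0 and 5, beside 6.78% and 27.4%. Among the 5 was Hsp90b1, at 45.7 ± 8.72 CPM in resident, 97.6 ± 15.7 CPM in Siglec-Fint/CD101- and 51.8 ± 25.8 CPM in SiglecFhi/CD101+ libraries. Hspa5, the chaperone BiP, was at 180.4 ± 58.7, 123 ± 22.8 and 163 ± 89.5 CPM in resident, Siglec-Fint/CD101- and SiglecFhi/CD101+ libraries. Of 13 genes of IgA transport and mucosal homing, 6 were tested, with medians of -0.65 and 0.08. Against the resident range, 1 was higher and 1 lower without overlap in SiglecFhi/CD101+, and 1 and 0 in Siglec-Fint/CD101-. The higher one in SiglecFhi/CD101+ was Pigr, whose values there, 19.6 to 25.0 CPM, exceeded the resident maximum of 6.52 CPM. Its Siglec-Fint/CD101- values, 2.18 to 16.8 CPM, overlapped the resident range. Itgb7, the integrin chain of gut homing, was at 52.3 ± 14.6, 86.8 ± 47.6 and 12.5 ± 0.434 CPM, with SiglecFhi/CD101+ libraries below both other groups. Ccr10, a homing receptor of IgA plasma cells, had 0 counts in all libraries.

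Signals that feed B cells and plasma cells, and receptors for antibody, completed the lists. Of 14 survival and help genes 9 were tested, with medians of -1.99 and -1.97. Il6, a plasma cell survival cytokine, was at 34.9 ± 37.1 CPM in resident, 42.1 ± 40.2 CPM in Siglec-Fint/CD101- and 0.570 ± 0.056 CPM in SiglecFhi/CD101+ libraries, the last on 1 count in each library. Tnfsf13, which encodes APRIL, the ligand of BCMA, had 0 counts in all libraries. Of 10 Fc receptor genes 8 were tested, with medians of -1.94 and -1.33. Fcer1g, the shared signalling chain of IgE and IgG receptors, was at 223.5 ± 95.7, 48.2 ± 41.8 and 85.7 ± 75.5 CPM. None of these passed at the adjusted threshold. At an unadjusted p under 0.05, 0 Fc receptor genes and 0 survival and help genes were higher against resident libraries, while 1 and 3 were lower in SiglecFhi/CD101+ and 2 and 2 in Siglec-Fint/CD101- libraries. These counts, of 8 and 9 tested genes, stand beside 13.1% and 13.8% of all genes that were lower.

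**Figure D4:**
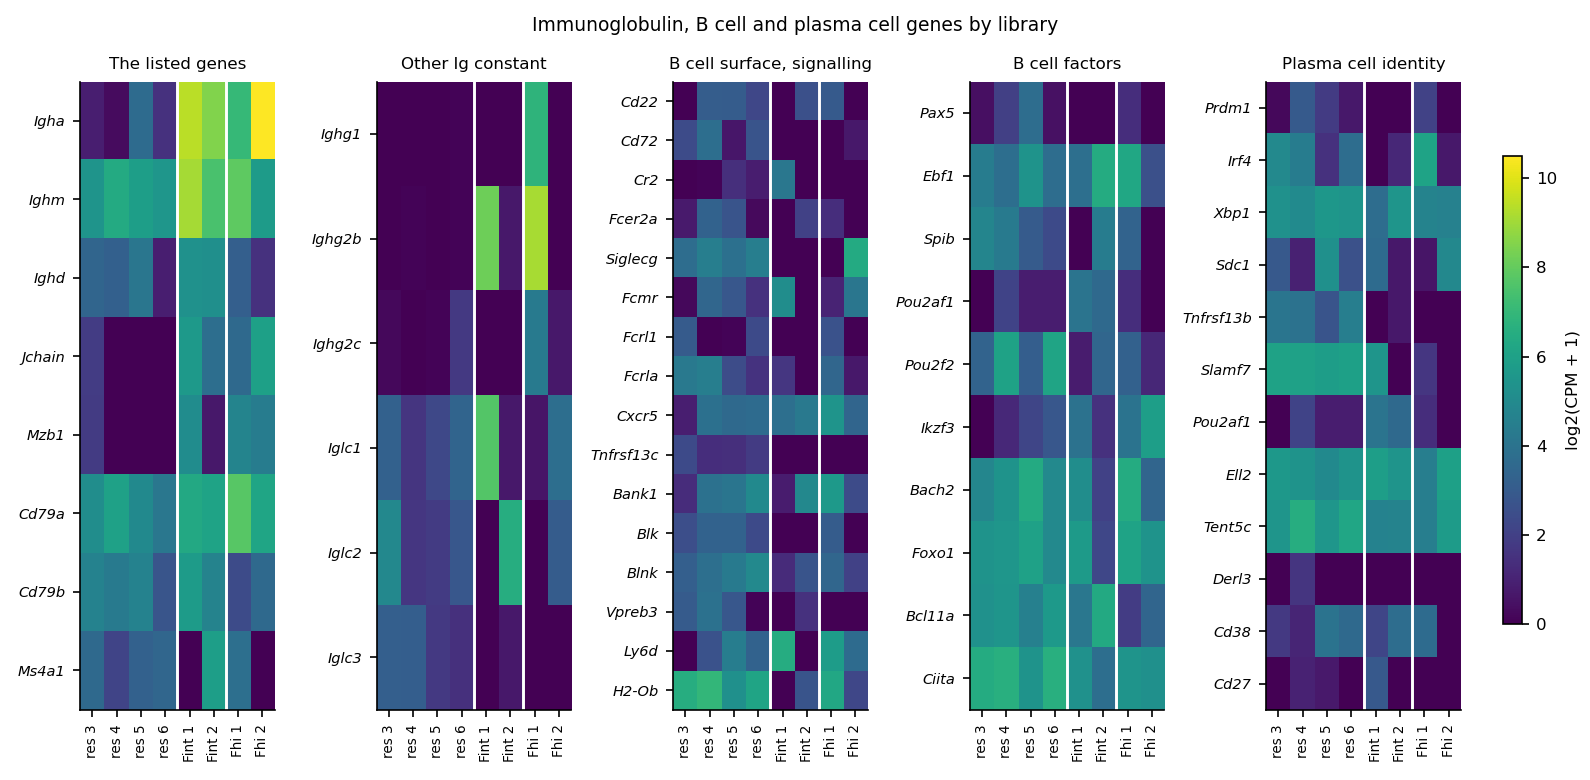
Level of the listed genes and of genes with a count from 4 related lists (1 gene is not shown), as log2(CPM + 1) in colour, by library (res, resident; Fint, Siglec-Fint/CD101-; Fhi, SiglecFhi/CD101+), with white lines between groups. Igha is bright in the 4 subset columns, whereas Ell2 stays between 21.2 and 61.6 CPM in all of them.

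Some of the listed genes varied together across the 8 libraries. Pearson's r of log2 CPM was 0.88 for Igha with Jchain, 0.89 for Jchain with Mzb1 and 0.72 for Igha with Mzb1. Cd79a had an r of 0.70 with Mzb1, 0.68 with Ighm and 0.63 with Jchain. It was -0.13 for Cd79a with Cd79b and 0.75 for Ighd with Cd79b. These values describe 8 libraries in 3 groups that also differ in depth, and they carry no test. The genes were listed for differences between these groups, so a high r across the groups can follow from that choice. Within Siglec-Fint/CD101-, Igha, Jchain and Mzb1 were all higher in replicate 1. Within SiglecFhi/CD101+, Igha and Jchain were higher in replicate 2 and Mzb1 in replicate 1. Among 5746 genes of at least median level, those closest to Igha included Chil4 (r = 0.94), Sept4 (0.94), C3 (0.92) and Dpm3 (0.90). Chil4, which encodes a chitinase-like protein of the type 2 airway response, was at 0, 0.0786, 3.15 and 0.0665 CPM in resident replicates 3 to 6, and at 289, 132, 50.4 and 33.5 CPM in the subset libraries. As with Igha, its highest resident value was in replicate 5. C3, complement component 3, ran from 15.7 to 34.8 CPM in resident and from 93.8 to 204 CPM in subset libraries. The genes closest to Cd79a were Lamtor5 (0.91), Mgll (0.88), Clca1 (0.87), Caln1 (0.81) and Epha6 (0.81). Clca1, a goblet cell secretory gene, was at most at 1.18 CPM in a resident library and had 84.3, 9.93, 125 and 23.8 CPM across the subset libraries, so it peaked, like Cd79a, in SiglecFhi/CD101+ replicate 1.

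Markers of other cell types were summed in the same libraries. The listed genes themselves summed to 80.3 to 176 CPM in resident, 741 to 1474 CPM in Siglec-Fint/CD101- and 645 to 1629 CPM in SiglecFhi/CD101+ libraries. Of 15 T and NK cell markers, 10 to 12 had a count in a resident library, 6 to 8 in Siglec-Fint/CD101- and 5 to 9 in SiglecFhi/CD101+ libraries. Their sums were also higher in every subset library than in any resident library, at 27.1 to 73.3, 211 to 257 and 141 to 447 CPM. Within SiglecFhi/CD101+ they ran opposite to the listed genes. The listed genes were at 645 and 1629 CPM in its replicates 1 and 2, and the T and NK cell markers at 447 and 141 CPM. Within Siglec-Fint/CD101- both sums were higher in replicate 1. Most of the subset counts came from Trbc2, Cd4 and Trac. Cd3d had 34 counts in Siglec-Fint/CD101- replicate 1 (24.7 CPM, beside 1.23 ± 0.621 CPM in resident libraries) and at most 4 in the other subset libraries. Cd3e had at most 3 counts in any subset library, Cd8a had 26 in SiglecFhi/CD101+ replicate 1 and 0 in the others, and Cd8b1 and Klrb1c had 0. Nkg7 was lower in both subsets, with means of 6.75 CPM in resident, 0.621 CPM in Siglec-Fint/CD101- and 0 CPM in SiglecFhi/CD101+ libraries. Neutrophil markers were at 138 to 481 CPM in resident, 593 to 1529.9 CPM in Siglec-Fint/CD101- and 297 to 1093 CPM in SiglecFhi/CD101+ libraries. Most of this was Retnlg, with means of 237, 1001 and 594 CPM. S100a8 was at 9.49, 13.3 and 34.9 CPM, S100a9 at 17.0, 29.7 and 24.7 CPM, and Cxcr2 at 7.94, 0 and 35.3 CPM. Camp and Elane were at 0 in all subset libraries and each in 3 of the 4 resident libraries. Summed epithelial markers overlapped between all groups. They were at 1055 to 13914 CPM in resident, 4719 to 7898 CPM in Siglec-Fint/CD101- and 4813 to 5315 CPM in SiglecFhi/CD101+ libraries. Taken singly, 1 of 12 was higher and 3 lower than in any resident library in SiglecFhi/CD101+, beside 6.78% and 27.4% of all genes. In Siglec-Fint/CD101- it was 1 and 1, beside 4.46% and 29.3%. Macrophage markers were at 281 to 807, 280.0 to 701 and 171 to 215 CPM. The part of these other cells in the Igha, Jchain and Mzb1 values was not tested.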

How the data were processed

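Per the labels' protocols, RNA of sorted eosinophils was sequenced by CEL-Seq on the Illumina NextSeq platform. The authors deposited 1 table of raw counts per Ensembl gene for each of the 8 libraries. Per the submitters' processing notes, the tools were TopHat2 2.1.0, Bowtie2 2.2.6, HTSeq 0.6.1, DESeq2 1.28.0, FastQC 0.11.5, cutadapt 1.10 and Trim Galore. Not given in the sources used here are their settings, genome build, annotation, strand and the handling of molecular identifiers, so amplified copies may add to the spread.

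Of 54446 rows, 54409 matched a GENCODE gene on GRCm38 and 37 did not. Groups came from sample titles. Counts were fitted in R 4.3.3 with edgeR 4.0.16 (TMM, filterByExpr, group means over all 8 libraries, robust quasi-likelihood, two-sided), which kept 11828 genes (biological coefficient of variation 1.12). Calls needed a Benjamini-Hochberg adjusted p below 0.05. The SE is the absolute log2 fold change over the square root of the F statistic. The labels do not say whether replicates were separate mice, so p-values measure only how far these samples spread, and that may be technical.

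The listed genes, the related lists and their tests were chosen with earlier results of these data known. Text names every listed gene, up to 4 genes of a related list (those past the threshold, then those of highest mean CPM), the 3 most counted V genes and the 5 genes closest to Igha and to Cd79a, but 3 genes that these rules or lists hold are not reported here. Other genes, including those named at 0 counts, Ighg2c, Ighg3 and Ighe, and the marker genes, were chosen after their values were seen. The fit was tested on simulated data with large planted changes, in genes of at least median level only. Smaller changes and genes below that level were not covered by it. Alternatives were RLE or no normalization factors, DESeq2 1.42.0, limma-voom (limma 3.58.1), other filters, mitochondrial or other immunoglobulin genes left out, a non-robust fit, a replicate block, the compared groups alone and each library left out in turn. Numbers of V genes at equal depth were not compared, for want of counts.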

Additional observations from a re-analysis of the deposited data

Results flagged for a closer look

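Within the 4 resident libraries, 6 of 18 gene levels and class shares had 1 library far from the other three by Dixon's criterion. Normally distributed values meet it by chance in about 1 group in 20, but sparse counts do not keep that rate. A gene with counts in only 1 of the 4 libraries is flagged whatever its count, as were Jchain, Mzb1 and Ighg1. Levels and shares also share genes, so nothing is read from the number flagged. Resident replicate 3 stood high for Jchain (2.67 CPM), Mzb1 (2.51 CPM) and Iglc2 (28.9 CPM). Resident replicate 5 stood high for Igha (11.6 CPM). Resident replicate 6 stood high for Ighg2c (2.39 CPM) and, on 1 count, for Ighg1 (0.0665 CPM). The libraries that held most of the resident Igha and most of the resident Jchain and Mzb1 were thus different ones.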

How the results depend on the processing

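Of the log2 fold changes of the 8 listed genes under the alternatives, 395 kept direction and side of the threshold, 22 lost and 6 gained a call, and 14 reversed. Reversals by setting were Ms4a1 in SiglecFhi/CD101+ against resident libraries (0.11 with RLE and 0.11 with DESeq2), Ms4a1 in Siglec-Fint/CD101- against resident libraries (-0.61 with limma-voom) and Igha between the subsets (-0.27 with limma-voom and -0.067 with the replicate block below). The others came from leaving out 1 library, with these ranges against resident libraries: Ms4a1 from -8.97 to 0.57 in SiglecFhi/CD101+ and from -8.98 to 2.76 in Siglec-Fint/CD101-, and Ighm from -0.19 to 1.95 in SiglecFhi/CD101+. Between the subsets the ranges were -2.07 to 1.38 for Igha, -1.56 to 1.45 for Jchain, -0.62 to 5.13 for Mzb1, -0.093 to 1.49 for Cd79a and -10.74 to 8.55 for Ms4a1. The cause was not tested.

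Calls of listed genes in SiglecFhi/CD101+ against resident libraries (main 1) were 0 with RLE, library totals, limma-voom, the filter of 20 counts in 2 libraries, a non-robust fit or the compared groups alone, 2 with DESeq2 (Jchain and Cd79a; Igha had no adjusted p), and 0 to 1 with a library left out. In Siglec-Fint/CD101- they were 0 with library totals, limma-voom, the stricter filter, the non-robust fit or the compared groups alone, 2 without a filter (Ighm and Jchain, with Igha at an adjusted p of 0.339), and 0 to 1 with a library left out. The single call was not Igha but Ighm with DESeq2 in Siglec-Fint/CD101- and Jchain without a filter in SiglecFhi/CD101+ libraries, where Igha was at 0.185. Over all genes in SiglecFhi/CD101+ against resident libraries (main 3), 7 were called with library totals, 939 with DESeq2, 370 without a filter and 1 with the compared groups alone (1 to 133 with a library left out). In Siglec-Fint/CD101- (main 7) it was 3, 733, 136 and 0, with 2 by limma-voom, 1 with the stricter filter and 1 with the non-robust fit (0 to 9). Between the subsets (main 1) it was 1309 with DESeq2, 85 without a filter, 0 with limma-voom and 0 with the compared groups alone (0 to 2). Listed genes higher without overlap in Siglec-Fint/CD101- against resident libraries were 2 with CPM by library totals (main 6) and, in SiglecFhi/CD101+ against Siglec-Fint/CD101-, 1 with CPM by library totals and 1 with CPM by counts outside the mitochondrial genome (main 0; Cd79a both times); these scalings were chosen after seeing the data. With library totals the higher and lower calls were 2 and 5 in SiglecFhi/CD101+ (main 3 and 0) and 1 and 2 in Siglec-Fint/CD101- (main 4 and 3), with RLE 7 and 2 in the latter, and without mitochondrial genes 3 and 1 in the former. The all-gene median moved with scaling, from -1.46 to -0.26 in SiglecFhi/CD101+ and from -1.96 to -0.63 in Siglec-Fint/CD101- against resident libraries.

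Shared replicate numbers exist only between the subsets, and same-numbered libraries did not deviate together (r = 0.0066 over 11828 genes). With a replicate block 4 genes were called, 0 of them listed, and Igha had a log2 fold change of -0.067. With 1 library left out, the mean IgA share was 1.81% to 6.19% in resident, 44.0% to 62.4% in Siglec-Fint/CD101- and 12.3% to 96.2% in SiglecFhi/CD101+ libraries. CPM scaled by counts outside the mitochondrial genome moved 22 of 27 group levels by more than their SD. A lone library left in a group is assumed to vary like the other groups. At 1 or 2 counts, levels in the shallow subset libraries lie below their floors of 1.59 to 2.18 CPM and are imprecise.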
